A study of Mus musculus with 12 samples.

Results

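Phlda3, Ei24 and Sesn1 are 3 genes known as transcriptional targets of the tumour suppressor p53, and their transcript levels were followed in splenic CD4+ T cells of young, aged and Dcaf1-deficient mice. The members were taken by name and are 3 of the 13404 genes in the gene-level count table. All 3 passed the low-count filter, with 9495 genes tested. The series compared CD4+CD25+ regulatory T cells (Treg) with CD4+ conventional T cells (Tconv), both sorted by flow cytometry from spleens of C57BL/6 mice and sequenced as poly(A)-selected bulk RNA. Young wild-type mice were 2 months old, aged wild-type mice were over 18 months old, and mice labelled Dcaf1-deficient were 2 months old. Each of the 6 groups (3 kinds of mouse by 2 cell types) had 2 libraries. What removed Dcaf1, and in which cells, is not given in the sources used here. Whether the 2 libraries of a group came from separate mice is not given either. Levels of Xist, given below, marked a male and a female library in aged Treg, Dcaf1-deficient Treg and aged Tconv. Those pairs therefore did not come from the same mouse. P-values measure the spread between the libraries, which may be technical in the other groups.

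p53 is a transcription factor that is stabilised by DNA damage and other stress, and its target genes arrest the cell cycle, trigger death or adjust metabolism. Mdm2, itself a target, encodes the ubiquitin ligase that keeps p53 low. PHLDA3 is a small pleckstrin-homology protein that competes with the kinase AKT for membrane lipids and so restrains AKT. EI24 is a membrane protein of the endoplasmic reticulum that acts in autophagy. SESN1 is a sestrin, which holds back the growth kinase complex mTORC1 through GATOR2, and its gene also responds to FoxO factors, which are active in resting T cells. DCAF1 recruits substrates to a ubiquitin ligase built on CUL4 and DDB1.

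The library totals ran from 18358477 to 26852448 estimated counts. Vprbp, the older symbol of Dcaf1, was measured at 102 and 101 CPM (counts scaled to a common library size) in the Treg labelled Dcaf1-deficient and at 144 and 128 CPM in young Treg. In Tconv it stood at 132 and 132 CPM against 147 and 144 CPM. The removed stretch of the gene is not given in the sources used here, so this gene-level count is no check of the deletion, and Dcaf1-deficient is used here as the label gives it. Rpl29, a ribosomal protein gene, set the labelled libraries apart, at 31.5 to 43.0 CPM against 717 to 845.5 CPM in the 4 young libraries. Aged Treg 1 had 92.7 CPM of Rpl29 and aged Treg 2 had 438 CPM, so the library labelled aged Treg 1 lay nearer the labelled Dcaf1-deficient libraries, and the members' results in aged Treg are given with and without it. Xist marked 5 libraries as female, namely aged Treg 2, Dcaf1-deficient Treg 2, aged Tconv 2 and both Dcaf1-deficient Tconv libraries, while all 4 young libraries were male. An unexplained tag stands in each title (L3, L4 or L5), and L3 is held by aged Treg 2 and aged Tconv 2 alone.

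Each gene lies on a different chromosome, and the sequence just before 3 of their 4 RefSeq start sites is shown because p53 acts by binding DNA at paired copies of a short element, here called the p53 decamer (10 bases). On GRCm38 with GENCODE M21, Phlda3 (ENSMUSG00000041801.5) spans chr1:135766119-135769136 on the plus strand with 2 exons in its longest transcript. Ei24 (ENSMUSG00000062762.16) spans chr9:36779159-36797393 on the minus strand with 11 exons. Sesn1 (ENSMUSG00000038332.13) spans chr10:41809935-41908424 on the plus strand with 10 exons and has start sites at 2 places in RefSeq, which gene-level counts do not separate. The 250 bases before each RefSeq start (GRCm38.p6) were searched on both strands for the p53 decamer and for GTAAACA, a FoxO-type motif. Capitals mark the decamer match in the sequences, which run 5′ to 3′ on the strand of the gene.
Phlda3, chr1:135765835-135766084, plus strand: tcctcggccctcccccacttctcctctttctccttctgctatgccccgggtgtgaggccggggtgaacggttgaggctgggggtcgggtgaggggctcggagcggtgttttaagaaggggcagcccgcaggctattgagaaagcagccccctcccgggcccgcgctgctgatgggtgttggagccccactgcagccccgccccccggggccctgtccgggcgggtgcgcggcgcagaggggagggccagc
Ei24, chr9:36797335-36797364, minus strand, the last 30 bases before the start: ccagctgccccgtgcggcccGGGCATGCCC
Sesn1, downstream start, chr10:41887189-41887438, plus strand: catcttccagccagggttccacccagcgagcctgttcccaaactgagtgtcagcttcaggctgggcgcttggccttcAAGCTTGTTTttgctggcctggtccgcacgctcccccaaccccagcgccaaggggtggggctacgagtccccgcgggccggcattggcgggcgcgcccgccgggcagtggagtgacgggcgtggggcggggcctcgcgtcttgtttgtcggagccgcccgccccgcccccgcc
The Ei24 match lies directly before the RefSeq start, and the last 59 bases of its window fall in an exon of GENCODE M21. The downstream Sesn1 window lies inside the gene and outside its annotated exons, and the Sesn1 match begins 173 bases before the downstream start. The Phlda3 window held no match, nor did the window before the upstream Sesn1 start, and GTAAACA was in none of the 4 windows. Among 32851 windows of the same length in RefSeq, 7.13% held a decamer and 3.17% held GTAAACA. These are letter matches only and say nothing about whether p53 binds there or elsewhere in the genes.

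Phlda3 was low in every young library and higher in every aged or Dcaf1-deficient library. Young Treg had 0.848 and 1.43 CPM (18 and 33 estimated counts), aged Treg had 14.0 and 9.89 CPM (370 and 215), and Dcaf1-deficient Treg had 15.1 and 10.5 CPM (429 and 249). In Tconv the levels were 1.03 and 0.550 CPM in young cells (22 and 10 counts), 3.55 and 7.37 CPM in aged cells (64 and 155), and 6.73 and 5.98 CPM in Dcaf1-deficient cells (138 and 124). No aged or Dcaf1-deficient library reached down to a young one of its cell type; of all genes tested, 29.9% were higher without overlap in aged Tconv, 20.2% in aged Treg, 34.2% in Dcaf1-deficient Tconv and 35.2% in Dcaf1-deficient Treg. The counting error was small beside these gaps. The exact 95% binomial interval was 0.983 to 2.01 CPM for young Treg 2, the higher young Treg library. For aged Treg 2, the lower aged one, it was 8.62 to 11.3 CPM. In Tconv the lower aged library had an interval of 2.74 to 4.54 CPM, and the higher young library, young Tconv 1, had one of 0.647 to 1.56 CPM. Such intervals cover counting error only.

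The order of Phlda3 levels put Dcaf1-deficient Treg first, at 12.8 ± 3.28 CPM (SD, n = 2), then aged Treg at 11.95 ± 2.91, Dcaf1-deficient Tconv at 6.36 ± 0.533, aged Tconv at 5.46 ± 2.70, young Treg at 1.14 ± 0.411 and young Tconv at 0.791 ± 0.341 CPM. Within cell type the Dcaf1-deficient and aged libraries overlapped, and so did young Treg and young Tconv. The replicate libraries differed by 1.13-fold to 2.07-fold within groups, most in aged Tconv. In Treg the nearest aged library was 6.93 times the highest young one, and the nearest Dcaf1-deficient library 7.32 times. In Tconv these ratios were 3.44 and 5.79.

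Ei24 was also lowest in the young libraries, by smaller ratios. Its levels were 78.6 and 83.1 CPM in young Treg, 109 and 132 CPM in aged Treg, and 114 and 106 CPM in Dcaf1-deficient Treg. Tconv had 75.3 and 74.4 CPM when young, 111 and 168 CPM when aged, and 101 and 100.4 CPM when Dcaf1-deficient. The 4 young libraries formed a narrow band from 74.4 to 83.1 CPM, and the other 8 were all at 100.4 CPM or above. The nearest libraries were 1.48 times apart in aged Tconv, 1.32 times in aged Treg, 1.33 times in Dcaf1-deficient Tconv and 1.27 times in Dcaf1-deficient Treg. Group means ran from aged Tconv (139.5 ± 39.9 CPM; SD, n = 2) through aged Treg (120.7 ± 15.8), Dcaf1-deficient Treg (109.8 ± 5.69) and Dcaf1-deficient Tconv (100.6 ± 0.292) to young Treg (80.9 ± 3.22) and young Tconv (74.9 ± 0.642). Aged Tconv overlapped aged Treg, and aged Treg overlapped Dcaf1-deficient Treg; the later neighbours in this order did not overlap. The annotated antisense gene Gm26787 shares 324 of the 4868 exon bases of Ei24, and since the counting is not stated to use strand, reads of the pair cannot be told apart there.

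Sesn1, in contrast, was highest in young cells within each cell type. Young Treg had 366 and 247 CPM, aged Treg 170 and 130.4 CPM, and Dcaf1-deficient Treg 179 and 188 CPM. In Tconv the levels were 219 and 194 CPM in young cells, 100.1 and 43.9 CPM in aged cells, and 156 and 162 CPM in Dcaf1-deficient cells. Every aged and Dcaf1-deficient library lay below the young libraries of its type, although the nearest Dcaf1-deficient Tconv library was only 1.20 times lower. Lower without overlap were 29.1% of all genes in aged Tconv, 22.4% in aged Treg, 32.7% in Dcaf1-deficient Tconv and 36.9% in Dcaf1-deficient Treg. The other nearest gaps were 1.93 times in aged Tconv, 1.45 times in aged Treg and 1.31 times in Dcaf1-deficient Treg. Ordered by mean, the groups were young Treg (306 ± 84.3 CPM; SD, n = 2), young Tconv (206 ± 17.5), Dcaf1-deficient Treg (184 ± 6.19), Dcaf1-deficient Tconv (159 ± 4.20), aged Treg (150.1 ± 27.9) and aged Tconv (72.0 ± 39.8). Dcaf1-deficient Tconv overlapped aged Treg, and no other neighbours in the order did.

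**Figure D1:**
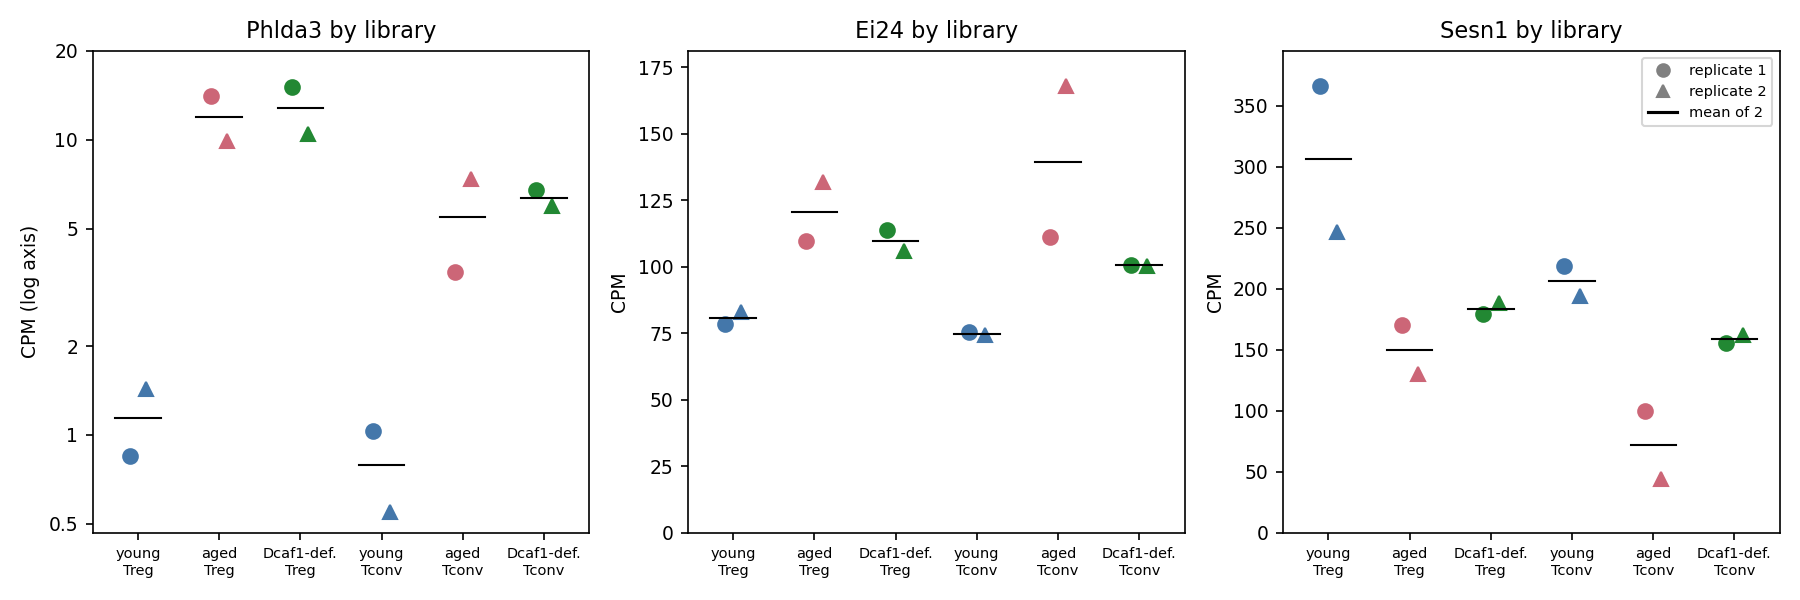
CPM (vertical axis; a log axis for Phlda3, from 0 for Ei24 and Sesn1) of each gene in the 12 libraries by group, with circles for replicate 1, triangles for replicate 2 and a line at the mean of 2. Phlda3 and Ei24 sit lowest in the young groups and Sesn1 sits highest there within each cell type.

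In aged against young Tconv all 3 genes passed the edgeR quasi-likelihood test, where 8.86% of the genes tested did so (6.38% higher and 2.47% lower). Phlda3 rose by 2.77 on the log2 scale (SE 0.49; edgeR adjusted p = 0.0246), or 6.84-fold. Ei24 rose by 0.90 (SE 0.18; edgeR adjusted p = 0.0288), or 1.86-fold, and Sesn1 fell by 1.52 (SE 0.35; edgeR adjusted p = 0.0422), or 2.86-fold. DESeq2, which called 2033 of 9704 genes there, gave adjusted p-values of 1.99e-05, 0.000227 and 0.000427 for them. Limma on the deposited log2 values, which called 7.59%, gave 0.0279, 0.0320 and 0.0318. These edgeR calls were close to the threshold: Phlda3 and Ei24 were lost when any of 7 libraries was left out (either Dcaf1-deficient Treg, either young Tconv, aged Tconv 2 or either Dcaf1-deficient Tconv), at adjusted p = 0.0523 to 0.165 for Phlda3 and 0.0595 to 0.189 for Ei24. Sesn1 was lost in those omissions and also without either young Treg library, at edgeR adjusted p = 0.0504 to 0.214, with log2 changes of -1.62 to -1.04.

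In aged against young Treg, edgeR called 0% of the genes tested and so none of the 3, although 1697 had an unadjusted p under 0.05. That count of calls rested on single libraries: it was 434 genes without aged Treg 1, 163 without aged Tconv 1 and 161 without aged Tconv 2. DESeq2 called 7.89% of genes there and limma called 2 genes. The Phlda3 difference was 3.38 on the log2 scale (SE 0.48; 95% interval 2.22 to 4.55; edgeR adjusted p = 0.126) and ranked 10 by p among all genes. DESeq2 called it at adjusted p = 8.51e-08, and edgeR called it without aged Treg 1, the library in doubt, at a difference of 3.11 and adjusted p = 0.0314. It was also called without aged Tconv 1 or aged Tconv 2 (edgeR adjusted p of at most 0.0446). Ei24 differed by 0.58 (SE 0.18; edgeR adjusted p = 0.185; DESeq2 adjusted p = 0.0419) and Sesn1 by -1.03 (SE 0.35; edgeR adjusted p = 0.208; DESeq2 adjusted p = 0.0666). Without aged Treg 1 these were 0.71 for Ei24 (edgeR adjusted p = 0.103) and -1.23 for Sesn1 (edgeR adjusted p = 0.177), and without aged Tconv 1 edgeR called Ei24 at adjusted p = 0.0496.

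The Dcaf1-deficient libraries were compared with young cells next, again with 0% of genes called by edgeR in either cell type. Leaving out 1 library at a time gave 0 to 157 genes in Treg and 0 to 17 in Tconv. Unadjusted p-values under 0.05 were found for 2359 genes in Treg and 954 in Tconv; DESeq2 called 12.4% and 2.61% of genes and limma 0 and 11 genes. In Treg, Phlda3 differed from young cells by 3.48 (SE 0.48; edgeR adjusted p = 0.131; DESeq2 adjusted p = 3.56e-08), Ei24 by 0.44 (SE 0.18; edgeR adjusted p = 0.184) and Sesn1 by -0.74 (SE 0.35; edgeR adjusted p = 0.227). In Tconv the differences were 2.99 for Phlda3 (SE 0.49; edgeR adjusted p = 0.203; DESeq2 adjusted p = 3.07e-05), 0.43 for Ei24 (SE 0.18; edgeR adjusted p = 0.489) and -0.38 for Sesn1 (SE 0.35; edgeR adjusted p = 0.701). Phlda3 in Dcaf1-deficient Treg passed edgeR when any 1 of the 4 aged libraries was left out (adjusted p = 0.0426 to 0.0465). Both Dcaf1-deficient Tconv libraries were female and both young Tconv libraries male, so sex and genotype cannot be told apart between these groups; with a term for sex, estimated from the other groups, the Sesn1 difference there was 0.12.

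**Figure D2:**
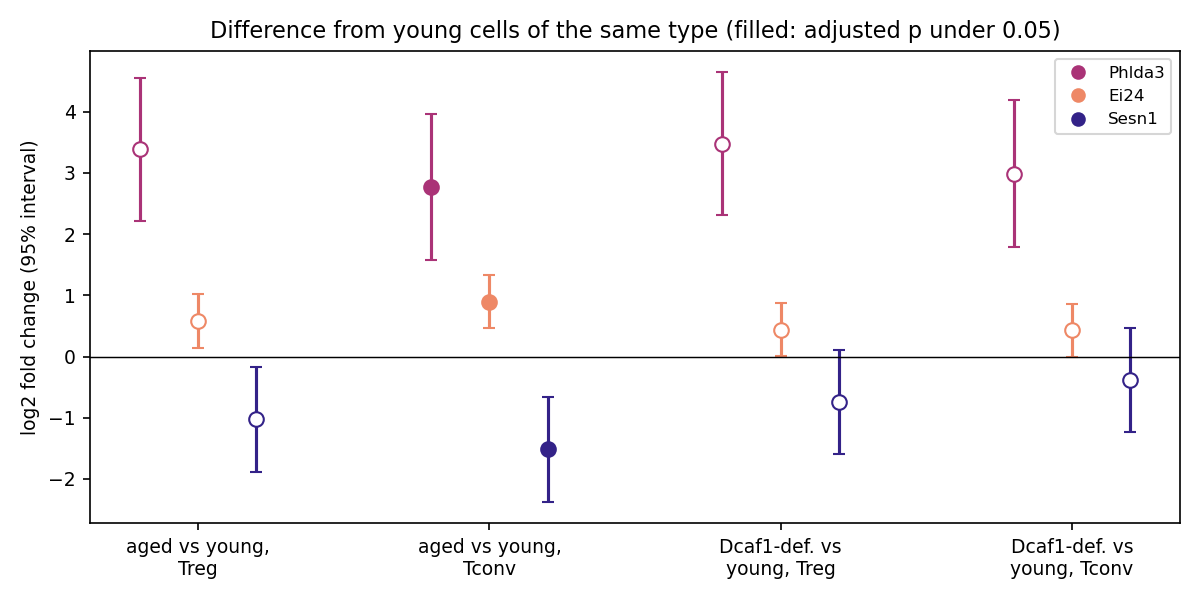
log2 fold change (vertical axis) of Phlda3, Ei24 and Sesn1 from young cells of the same type in 4 comparisons, with 95% intervals; filled points passed the edgeR threshold of 0.05 after adjustment. Phlda3 lies between 2.77 and 3.48 in all 4, Ei24 between 0.43 and 0.90, and Sesn1 between -1.52 and -0.38.

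Across the 4 comparisons with young cells, Phlda3 and Ei24 were higher without overlap in all 4, as were 8.21% of the genes tested, and Sesn1 was lower in all 4, as were 9.67%. The 2 comparisons in a cell type share their young libraries, so these directions are not independent. The non-overlap also fixes the direction within any title tag or sex, so the values given next are a description. Among libraries tagged L4, the Treg values were 14.0 CPM of Phlda3 in aged Treg 1 and 15.1 and 10.5 CPM in Dcaf1-deficient Treg against 0.848 and 1.43 CPM in young Treg. Among Tconv libraries tagged L5, Sesn1 was at 194 CPM in young Tconv 2, 100.1 CPM in aged Tconv 1 and 156 and 162 CPM in the Dcaf1-deficient pair. In males alone, aged Tconv 1 had 3.55 CPM of Phlda3 and 111 CPM of Ei24, above both young Tconv libraries.

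Dcaf1-deficient cells were then set against aged cells, in which edgeR called 3.08% of genes in Tconv and 0% in Treg (702 genes at an unadjusted p under 0.05; DESeq2 called 63 genes and limma 0). None of the 3 members was called by edgeR in either. The Phlda3 difference was 0.22 in Tconv (95% interval -0.92 to 1.36; edgeR adjusted p = 0.808) and 0.10 in Treg (95% interval -1.03 to 1.23; edgeR adjusted p = 0.931), intervals too wide to show that the levels are alike. In Tconv the Sesn1 libraries did not overlap and differed by 1.14 (SE 0.35; edgeR adjusted p = 0.114; DESeq2 adjusted p = 0.0155), with less Sesn1 in aged than in Dcaf1-deficient cells. DESeq2 called 14.9% of genes in that comparison, and 30.6% of genes were higher and 29.3% lower without overlap. Ei24 was also apart there, at -0.47 (SE 0.18; edgeR adjusted p = 0.177). Without aged Tconv 1 the differences were 1.86 for Sesn1 and -0.73 for Ei24. These rest on aged Tconv 2 as the only aged Tconv library. Of all libraries it had the lowest Sesn1 (43.9 CPM) and the highest Ei24 (168 CPM). In Treg the differences were -0.14 for Ei24 (edgeR adjusted p = 0.75) and 0.29 for Sesn1 (edgeR adjusted p = 0.736); without aged Treg 1 they were 0.37 for Phlda3, -0.27 for Ei24 and 0.49 for Sesn1 (edgeR adjusted p = 0.691, 0.408 and 0.473).

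Treg and Tconv from the same kind of mouse were also compared, where edgeR called 0.800% of genes in young, 0.821% in aged and 2.22% in Dcaf1-deficient cells, and none of the 3 members. The Phlda3 difference, Treg minus Tconv, was 0.52 in young cells (edgeR adjusted p = 0.67), 1.13 in aged cells (edgeR adjusted p = 0.248) and 1.01 in Dcaf1-deficient cells (edgeR adjusted p = 0.225). In the aged and the Dcaf1-deficient groups the Treg libraries lay above the Tconv libraries without overlap, as they did for 15.7% and 39.5% of all genes. Sesn1 differed by 0.57, 1.06 and 0.21 (edgeR adjusted p = 0.495, 0.187 and 0.723), and in aged cells, where DESeq2 called 9.91% of genes, it gave an adjusted p of 0.0315. Without aged Tconv 1 the Sesn1 difference there was 1.78, with aged Tconv 2 as the only aged Tconv library. Ei24 differed by 0.11, -0.21 and 0.13 (edgeR adjusted p = 0.816, 0.547 and 0.678). Without aged Treg 1 the differences in aged cells were 0.86 for Phlda3, -0.08 for Ei24 and 0.86 for Sesn1 (edgeR adjusted p = 0.539, 0.914 and 0.409). Whether the age difference itself was unlike in Treg and Tconv was tested as an interaction, where edgeR called 0% of genes (615 genes at an unadjusted p under 0.05; DESeq2 130 genes, limma 1). Treg minus Tconv was 0.61 for Phlda3, -0.32 for Ei24 and 0.49 for Sesn1 (edgeR adjusted p = 0.959, 0.936 and 0.955), and without aged Treg 1 it was 0.34, -0.19 and 0.29 (edgeR adjusted p = 0.973, 0.932 and 0.962). For the Dcaf1-deficient difference edgeR again called 0% (260 genes at an unadjusted p under 0.05; DESeq2 1 gene, limma 0), and the values were 0.49, 0.01 and -0.36 (edgeR adjusted p = 1 for each).

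Other p53 target genes gave a mixed pattern. Of a list of 52 targets, 41 were in the count table and 38 were tested; the list was drawn up with results of these libraries known. In aged Tconv edgeR called 5 of the 38 higher and 1 lower, which is 15.8% against 8.86% of all genes. These 6 calls include the 3 members, also chosen with results known, so the share overstates that of the other targets. Without the members, the targets had no higher share of calls than all genes. The list counts and medians that follow include the members too. Besides the 3 members, Abhd4, which encodes a lipid hydrolase, rose by 3.12 (edgeR adjusted p = 0.0159), Cdkn1a, which encodes the cell-cycle inhibitor p21, by 3.83 (edgeR adjusted p = 0.0419), and Apaf1, the scaffold of the apoptosome, by 1.02 (edgeR adjusted p = 0.0438). Without aged Tconv 2, or without either young Tconv library, this count was 0, and with a term for sex it was 1. edgeR called 0 of 38 in the other 3 comparisons with young cells; at an unadjusted p under 0.05 there were 16 in aged Treg, 8 in Dcaf1-deficient Tconv and 19 in Dcaf1-deficient Treg, beside 1697, 954 and 2359 of the 9495 genes. DESeq2 called 9, 3 and 12 of the list in the same order, where it called 7.89%, 2.61% and 12.4% of all genes. Without aged Treg 1 edgeR called 2 of the list in aged Treg, among 434 genes in all. In Dcaf1-deficient Treg it called 16 of the list among 2219 genes without young Treg 2 and aged Treg 1, and 13 among 1991 genes without aged Treg 2 and aged Tconv 2. The list's median log2 difference was 0.16 in aged Tconv, 0.33 in aged Treg, 0.15 in Dcaf1-deficient Tconv and 0.27 in Dcaf1-deficient Treg, where the medians of all genes were -0.0017, 0.024, -0.0011 and -0.0081. Without aged Treg 1 the list's median in aged Treg was 0.21, beside -0.026 for all genes.

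Cdkn1a had a pattern like that of Phlda3. It stood at 1.27 and 5.71 CPM in young Treg, 51.9 and 21.4 CPM in aged Treg and 62.3 and 46.05 CPM in Dcaf1-deficient Treg. Tconv had 1.41 and 2.92 CPM when young, 13.7 and 47.7 CPM when aged and 16.15 and 16.2 CPM when Dcaf1-deficient, so the aged and Dcaf1-deficient libraries were all above the young ones. Mdm2 ranged only from 149.6 to 198.7 CPM over the 12 libraries, with log2 differences from young of 0.03 in aged Tconv, 0.16 in aged Treg, 0.05 in Dcaf1-deficient Tconv and -0.01 in Dcaf1-deficient Treg. Trp53, which encodes p53 itself, was at 120 and 121 CPM in Dcaf1-deficient Treg against 228 and 188 CPM in young Treg, and at 112 and 109 CPM in Dcaf1-deficient Tconv against 214 and 196 CPM. Those Trp53 differences were -0.79 (edgeR adjusted p = 0.131; DESeq2 adjusted p = 0.00674) and -0.89 (edgeR adjusted p = 0.283; DESeq2 adjusted p = 0.0014). In aged cells Trp53 overlapped the young libraries, at 131 and 197 CPM in Treg and 198 and 167.5 CPM in Tconv. Transcript levels do not show p53 protein or its activity.

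**Figure D3:**
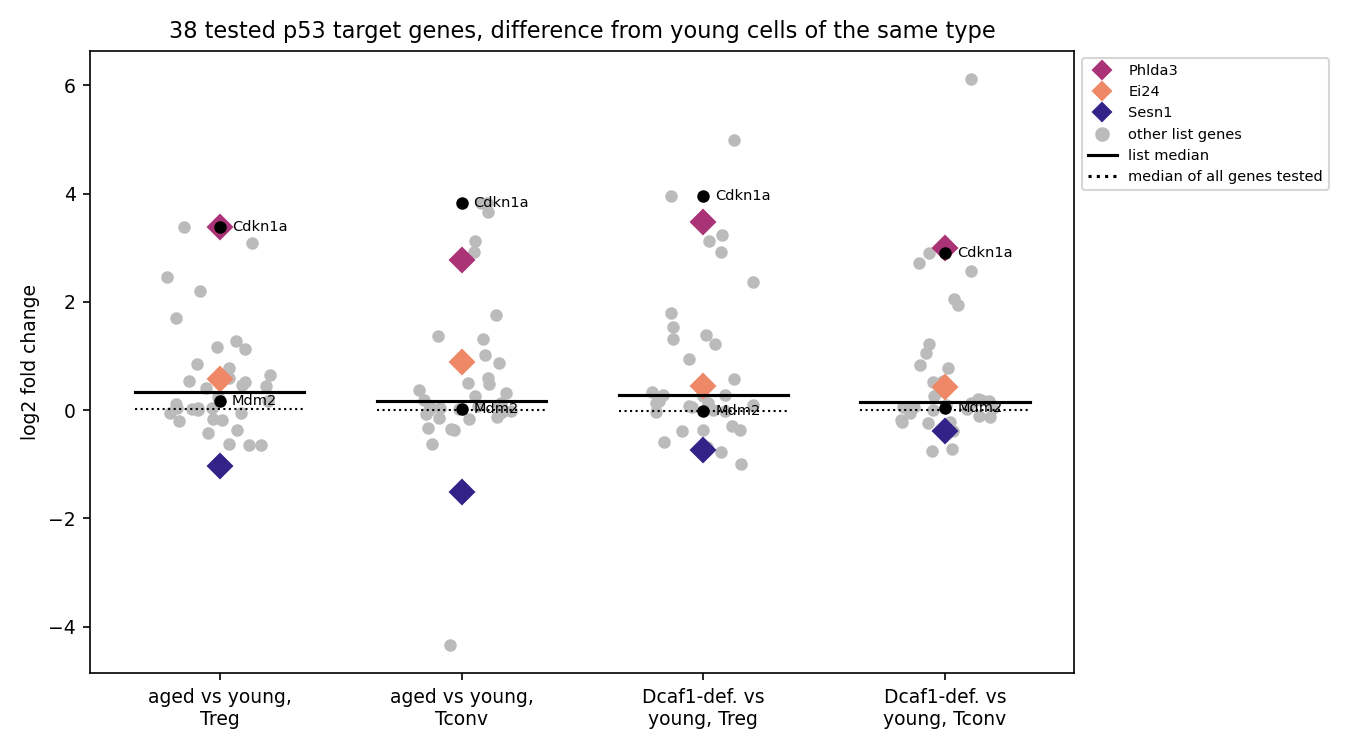
log2 fold change (vertical axis) of the 38 tested p53 target genes from young cells of the same type in 4 comparisons; each point is a gene, solid lines mark the list's median and dotted lines the median of all 9495 genes. Phlda3 and Cdkn1a lie near the top in each column, Mdm2 near 0, and Sesn1 below 0.

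The relatives of the members were measured in the same libraries. Sesn2, the sestrin gene induced by many stresses, had 14.7 and 21.4 CPM in young Treg, 42.6 and 11.6 CPM in aged Treg and 45.4 and 49.7 CPM in Dcaf1-deficient Treg. In Tconv it was at 9.81 and 17.7, 13.1 and 8.65, and 31.3 and 26.04 CPM for young, aged and Dcaf1-deficient cells. Sesn2 thus lay above the young level in the Dcaf1-deficient libraries, where Sesn1 lay below it, and its aged libraries overlapped the young ones; the Dcaf1-deficient Treg difference of 1.40 had an edgeR adjusted p of 0.184. Sesn3 ranged from 83.0 to 169.9 CPM, and its lowest pair was Dcaf1-deficient Treg, with a log2 difference from young Treg of -0.73 (edgeR adjusted p = 0.133; DESeq2 adjusted p = 0.0146). Phlda1 ranged from 9.46 to 30.8 CPM, with overlap of young cells with aged Treg and with Dcaf1-deficient Tconv. It lay higher without overlap in aged Tconv (20.1 and 16.7 against 10.8 and 12.5 CPM), as did 29.9% of genes. In Dcaf1-deficient Treg it lay lower without overlap (9.46 and 9.95 against 28.2 and 11.7 CPM), as did 36.9%. edgeR called neither difference. Phlda2 did not exceed 0.555 CPM in any library.

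Genes around the members were counted in aged against young Tconv, since edgeR called no gene of any kind in the other 3 comparisons with young cells. Of 19 tested genes of the AKT pathway, Phlda3 rose and Pik3r1, a regulatory subunit of PI3-kinase, fell by 1.13 (edgeR adjusted p = 0.0491). Pik3r1 was at 396 and 344 CPM in young Tconv and 218.6 and 120.7 CPM in aged Tconv. Of 23 tested genes of a sestrin, GATOR and mTORC1 list, Sesn1 fell. Srxn1 also stood on that list, although it encodes the sulfiredoxin that repairs oxidised peroxiredoxins and not a part of these. Srxn1 rose by 4.71 (edgeR adjusted p = 0.0191), from 1.17 and 1.21 CPM to 18.3 and 44.4 CPM. Of 27 tested autophagosome genes, Ei24 rose together with Vmp1, which encodes another membrane protein of the endoplasmic reticulum in autophagy, by 1.54 (edgeR adjusted p = 0.0191), from 57.7 and 65.4 CPM to 142.6 and 214.8 CPM. Of 15 tested regulators of p53, none rose and Daxx fell by 0.49 (edgeR adjusted p = 0.0362). By edgeR the shares called were 10.5% of the AKT genes, 8.70% of the sestrin list and 7.41% of the autophagosome genes, members included. The p53 regulators had 6.67%, and these shares are near the 8.86% of all genes. Leaving out 1 library at a time gave 0 to 10, 0 to 3, 0 to 4 and 0 to 4 calls in these lists.

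Genes linked to FoxO in resting T cells were the last group. Their list includes Sesn1 and was drawn up with results of these libraries known. In aged Tconv edgeR called 4 of 16 tested lower and 3 higher. That is 43.8% of the list, beside 8.86% of all genes, and it became 0 to 11 genes when 1 library at a time was left out. Foxo1 fell by 1.24 (edgeR adjusted p = 0.0348), Txnip, a thioredoxin-binding protein gene, by 1.62 (edgeR adjusted p = 0.0326), and Bcl2l11, which encodes the death factor BIM, by 1.25 (edgeR adjusted p = 0.0159), together with Sesn1. Those that rose were Bcl6 by 2.18, Ctla4 by 3.08 and Klf4 by 1.83 (edgeR adjusted p = 0.0232, 0.0253 and 0.0266); Ctla4 is also a Treg marker. Foxo1 was at 565 and 591 CPM in young Tconv, 323 and 168 CPM in aged Tconv and 477 and 474 CPM in Dcaf1-deficient Tconv, the same order as Sesn1. The median log2 difference of the 16 was -1.21 in aged Tconv, -0.77 in aged Treg, -0.27 in Dcaf1-deficient Tconv and -0.60 in Dcaf1-deficient Treg, beside -0.0017, 0.024, -0.0011 and -0.0081 for all genes. Without aged Treg 1 it was -0.98 in aged Treg, beside -0.026 for all genes.

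Transcripts of other cell types varied between libraries and moved with some of these results. The summed level of 10 macrophage markers (of a list of 12) was 234 to 4715 CPM in young Treg, 1322 to 11560 CPM in aged Treg and 13550 to 16880 CPM in Dcaf1-deficient Treg. In Tconv it was 29.5 to 310.5 CPM in young cells, 201 to 588.5 CPM in aged cells and 1155 to 1224 CPM in Dcaf1-deficient cells; Mertk was the only one of the 10 at 0 in any library, in 2 of them. In aged Tconv most of the sum was Axl, at 128 and 511.7 CPM against 10.6 and 36.2 CPM in young Tconv, and the mean log2 CPM of the 10 was 2.59 and 1.86 in aged and 0.43 and 4.59 in young Tconv. The 7 B cell markers (of 8) summed to 83.7 to 2537 CPM in young Treg, 119 to 1963 CPM in aged Treg and 2320 to 2400 CPM in Dcaf1-deficient Treg, with none at 0, and to at most 390.2 CPM in any Tconv library. The 6 T cell markers (of 10), none at 0, summed to 3305 to 4879 CPM in young Treg, 2681 to 5097 CPM in aged Treg, 2191 to 2438 CPM in Dcaf1-deficient Treg and 6010 to 7740 CPM in Tconv. The 9 erythroid markers (of 12) summed to 26.7 to 1592 CPM in young Treg, 154 to 4579 CPM in aged Treg and 5392 to 12180 CPM in Dcaf1-deficient Treg, with Tspo2 at 0 in 2 libraries. In Tconv they summed to 12.2 and 121 CPM in young cells, 162 and 30.5 CPM in aged cells and 1521 and 1516 CPM in Dcaf1-deficient cells. The 7 neutrophil markers (of 8) summed to 0.282 and 44.7 CPM in young Treg and to 235 and 9.85 CPM in aged Treg. In Dcaf1-deficient Treg they summed to 275 and 539.9 CPM. In Tconv they summed to at most 5.70 CPM in young and aged cells and to 45.9 and 50.05 CPM in Dcaf1-deficient cells. Of these markers Ly6g was at 0 in 7 of the 12 libraries, Mpo and S100a8 in 2 each, and Camp, Ltf and S100a9 in 1 each. Among 4 NK cell markers (of 5), Eomes was at 199 and 445 CPM in aged Tconv against 15.9 and 16.3 CPM in young Tconv, whereas Klrd1 was at 11.3 and 13.9 CPM against 30.5 and 46.5 CPM. In bulk RNA fewer cells of a type and less RNA per cell cannot be told apart. Within young Treg the library with more macrophage transcript (4715 against 234 CPM) had 1.43 against 0.848 CPM of Phlda3 and 247 against 366 CPM of Sesn1. Within aged Treg the library with more (11560 against 1322 CPM) had 14.0 against 9.89 CPM of Phlda3 and 170 against 130.4 CPM of Sesn1. The part of these other cell types in the members' results was not tested.

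The sorted identity was also checked. The 6 Treg markers (of 8) summed to 2208 to 8310 CPM in Treg libraries and to 427 to 508.7 CPM in young and Dcaf1-deficient Tconv. Aged Tconv stood apart with 2354 and 3511 CPM, as large as in some Treg libraries. The 6 markers did not all move together there. Foxp3 was at 334 and 675 CPM in aged Tconv against 47.7 and 78.4 CPM in young Tconv. Il2ra, which encodes CD25, was at 43.1 and 29.7 CPM against 31.8 and 63.2 CPM, and at 576 to 1337 CPM in Treg. The labels say only that Tconv were CD4+, and the part of Treg marker transcripts in the aged Tconv results was not tested.

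**Figure D4:**
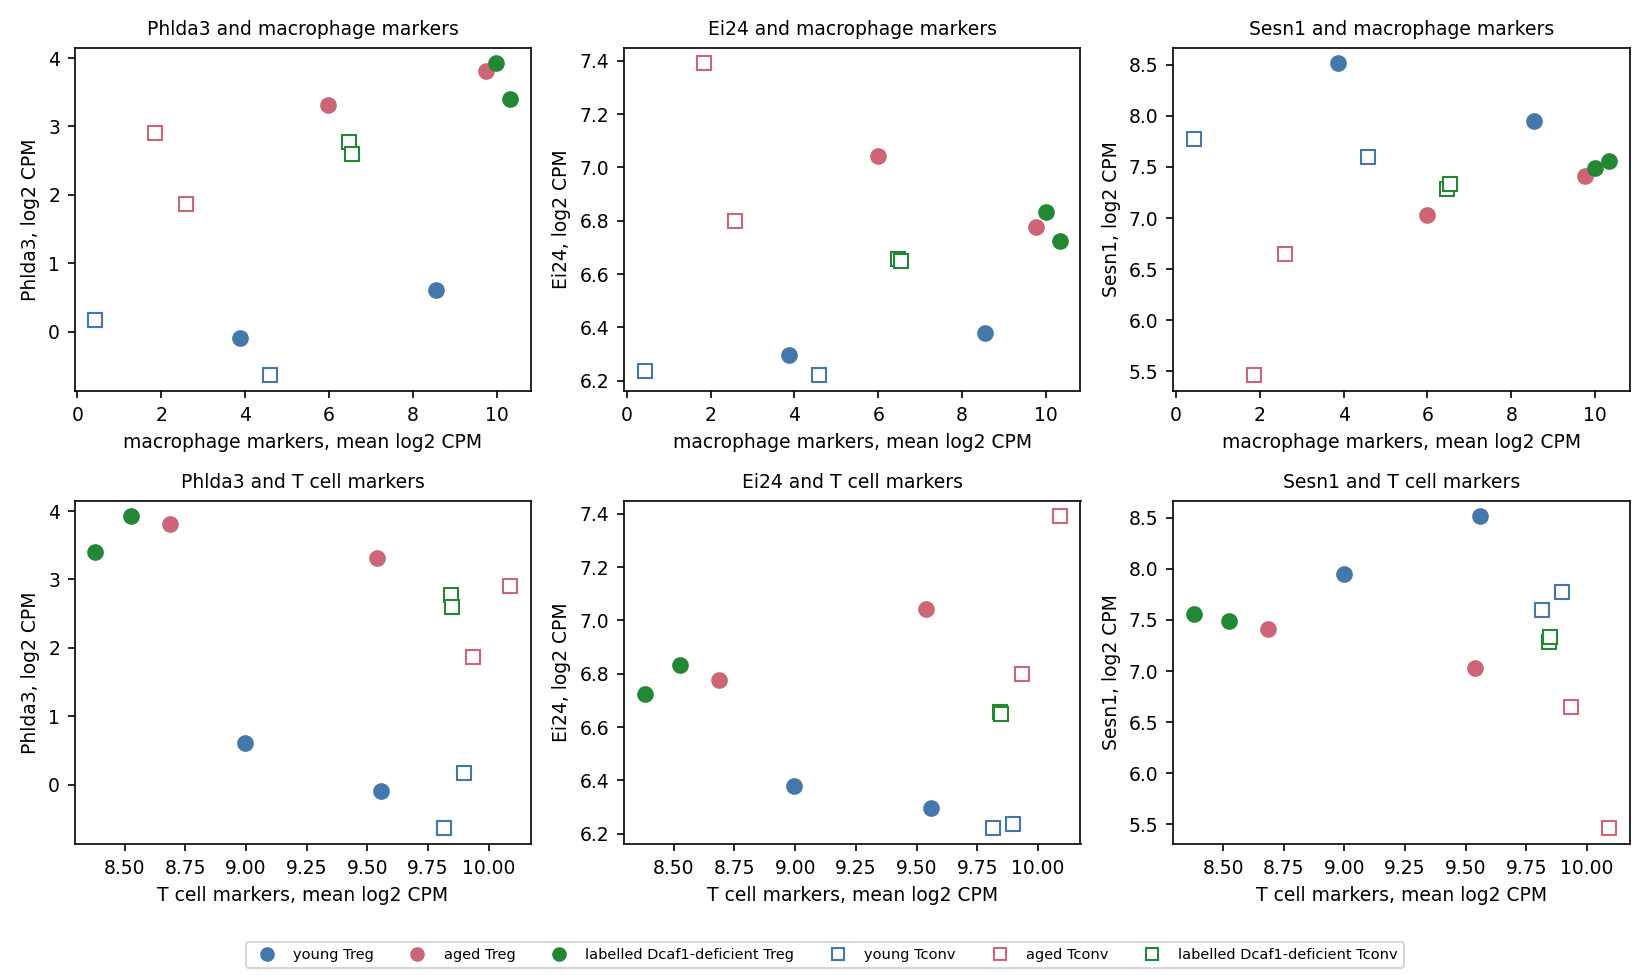
log2 CPM of each gene (vertical axes) against the mean log2 CPM of macrophage markers (upper panels) and T cell markers (lower panels) in the 12 libraries, with filled circles for Treg and open squares for Tconv. Among Treg, both Dcaf1-deficient libraries and aged Treg 1 lie farthest to the right in the macrophage panels, and the young libraries lie lowest for Phlda3 and Ei24 in every panel of those genes.

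Over the 12 libraries, log2 CPM of Phlda3 and Ei24 correlated at Pearson r = 0.78, Ei24 and Sesn1 at r = -0.848, and Phlda3 and Sesn1 at r = -0.456; the libraries share 6 groups, so these are descriptions without a test. Ei24 had its highest library and Sesn1 its lowest in aged Tconv 2, whereas Phlda3 had its highest in Dcaf1-deficient Treg 1. The genes most like Phlda3 were Cenpa (r = 0.956), Tceb3 (0.949), Cdkn1a (0.944), Fam129b (0.944) and Slbp (0.939). For Ei24 they were Ech1 (0.979), Fam216a (0.974), Srpr (0.973), Vangl1 (0.97) and Txndc17 (0.964). Vangl1 had 39.1 CPM in aged Tconv 2 and at most 2.44 CPM in the other 11 libraries, so it passed the minimum mean of 4 CPM set for this ranking through that library alone. For Sesn1 they were Rcsd1 (0.964), Pik3r1 (0.962), Tmem64 (0.955), Crk (0.954) and Car12 (0.951).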

How the data were processed

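Bulk RNA of 12 libraries was measured by poly(A)-selected sequencing. The authors deposited estimated counts per gene, made with Salmon 0.9.1 and mm10 per the submitters' processing notes, which also name DESeq2, and a table of log2 values, whose transform is not given in the sources used here; 18 names in the table had become dates. Counts were rounded, scaled by TMM and filtered with filterByExpr (9495 genes kept, 1991 removed), and 11 contrasts were fitted in 1 edgeR 4.0.16 quasi-likelihood model of 6 groups (6 residual degrees of freedom; R 4.3.3), with Benjamini-Hochberg adjustment over all genes and a threshold of 0.05. The estimated counts of the authors carry mapping uncertainty between near-identical genes that the test does not model. CPM used TMM-scaled totals, and log2 CPM a prior count of 2. DESeq2 1.42.0 on the counts and limma 3.58.1 on the deposited log2 values were alternatives, with others in scaling, filter, samples, tag, sex and replicates. The pipeline was tested on simulated data. Named genes were the members, their relatives, Dcaf1, Trp53, Mdm2, Cdkn1a, up to 6 called genes of each list and the 5 genes of at least 4 CPM most correlated with each member; Rpl29 was chosen after its values were seen. The members and lists were chosen with earlier results of these data known. Same-numbered libraries did not deviate together in most of 15 group pairs (r from -0.656 to 0.677, 4 over 0.1). Only Treg and Tconv of the same kind of mouse could come from shared mice. Their r was 0.677 in young, 0.271 in aged and 0.0414 in Dcaf1-deficient cells. The main fit did not take the numbers as pairs, so its Treg against Tconv tests ignore any pairing there. A replicate block was fitted as an alternative.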

Additional observations from a re-analysis of the deposited data

How the results depend on the processing

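Each member was refitted under 22 alternatives in comparisons within a cell type and 21 elsewhere, since the fit on the libraries of 1 cell type gives no Treg against Tconv value. Of these refits 640 kept direction and side of the threshold, 29 lost a call, 23 gained one and 19 turned direction; for those the cause was not tested. Where 1 library was left of a group, it was assumed to vary like the other groups. With 2 libraries a group and 6 residual degrees of freedom, calls near the threshold moved with most omissions.

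Calls were lost in aged against young Tconv as follows: with a term for sex Phlda3 was 2.78 (edgeR adjusted p = 0.0564), Ei24 0.75 (0.0583) and Sesn1 -1.35 (0.0692); on Tconv alone Ei24 was 0.91 (0.0637) and Sesn1 -1.51 (0.0765); with a term for the title tag Sesn1 was -1.28 (0.0675). Limma on the deposited log2 values gave Phlda3 there a smaller difference, 1.44 (limma adjusted p = 0.0279).

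Calls were gained by DESeq2 against young cells for Phlda3 in aged Treg (3.42), Dcaf1-deficient Tconv (2.99) and Dcaf1-deficient Treg (3.53) and for Ei24 in aged Treg (0.60), and for Sesn1 in Dcaf1-deficient against aged Tconv (1.16) and in aged Treg against Tconv (1.10). A term for sex also gave Sesn1 a call in Dcaf1-deficient against aged Tconv (1.47, edgeR adjusted p = 0.0432). It raised the count of all genes called there from 292 to 907. Without aged Treg 2 and aged Tconv 2, edgeR called Phlda3 in Dcaf1-deficient Tconv (2.99). In Dcaf1-deficient Treg it called Phlda3 (3.48), Ei24 (0.44) and Sesn1 (-0.74). The differences were those of the main fit, and edgeR called more of all genes in both comparisons too. Without young Treg 2 and aged Treg 1, it called Phlda3 in Dcaf1-deficient Treg (3.91; adjusted p = 0.0176).

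Directions that turned were all of differences that no fit called. With the title tag, Dcaf1-deficient against aged Treg gave -0.040 for Phlda3, 0.054 for Ei24 and -0.060 for Sesn1, Dcaf1-deficient Treg against Tconv gave -0.15 for Phlda3, and the Dcaf1-deficient interaction gave -0.17 for Phlda3 and -0.044 for Ei24. With sex, Sesn1 was 0.12 in Dcaf1-deficient against young Tconv and -0.010 in Dcaf1-deficient Treg against Tconv. Without aged Treg 2 and aged Tconv 2, Dcaf1-deficient against aged Treg gave -0.14 for Phlda3 and 0.0017 for Ei24.

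Leaving out 1 library at a time gave these log2 ranges. In aged against young Tconv, Phlda3 ran from 2.15 to 3.30, Ei24 from 0.57 to 1.16 and Sesn1 from -2.24 to -1.04. In aged against young Treg, Phlda3 ran from 3.06 to 3.81 and Ei24 from 0.44 to 0.71. In Dcaf1-deficient against young Treg, Phlda3 ran from 3.15 to 3.90. Dcaf1-deficient against aged Tconv gave -0.21 to 0.84 for Phlda3, turning without aged Tconv 1, with -0.73 to -0.14 for Ei24 and 0.67 to 1.86 for Sesn1. Dcaf1-deficient against aged Treg gave -0.20 to 0.37 for Phlda3, turning without aged Treg 2 or Dcaf1-deficient Treg 1, and -0.27 to 0.00088 for Ei24. Treg against Tconv in aged cells gave -0.47 to 0.12 for Ei24, turning without aged Tconv 2, and 0.58 to 1.78 for Sesn1. The age interaction gave -0.58 to 0.0064 for Ei24, and the Dcaf1-deficient interaction -0.012 to 0.91 for Phlda3 and -0.044 to 0.066 for Ei24.

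The 6 p53 targets called in aged Tconv became 12 with DESeq2, 1 with a term for sex and 0 to 7 without 1 library. In aged Treg the count of 0 became 9 with DESeq2, 1 without young Treg 2 and aged Treg 1, and 0 to 2 without 1 library. In Dcaf1-deficient Tconv it became 3 with DESeq2 and 3 without aged Treg 2 and aged Tconv 2. In Dcaf1-deficient Treg it became 12 with DESeq2, 16 without young Treg 2 and aged Treg 1, 13 without aged Treg 2 and aged Tconv 2, and 0 to 1 without 1 library. The 841 genes called in aged Tconv became 2033 with DESeq2, 437 with the title tag, 303 with sex, 1431 without young Treg 2 and aged Treg 1, and 0 to 2340 without 1 library.

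The replicate block changed no call of a member: in aged Tconv it gave Phlda3 2.79 (edgeR adjusted p = 0.0339), Ei24 0.88 (0.0332) and Sesn1 -1.58 (0.0314). It moved the genes called from 292 to 190 in Dcaf1-deficient against aged Tconv, from 76 to 40 in young Treg against Tconv and from 78 to 50 in aged cells.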
